A study of Mus musculus with 42 samples.

Results

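Cavin2, a coat protein of caveolae, and the 4 genes whose products build the coat with it, Cavin1, Cavin3, Cav1 and Cav2, were followed in sensory ganglia of mice of the inbred BALB/c strain, kept in standard housing. The 5 genes were read by every Affymetrix probe set that the platform annotation gives to exactly 1 of them. Those were 6 of the 12488 probe sets of the MG-U74Av2 array, for 4 of its 8252 named genes, and 10 of the 45101 probe sets of the Mouse430_2 array, for 5 of its 18194 named genes. Cav2 had no such probe set on MG-U74Av2. Cavin2 was chosen by its signal on these arrays, which earlier results showed to be higher in nodose ganglion, so its ganglion differences are given as a description with no test. The other 4 genes were added for their function, and the question asked of them was whether Cavin2 in nodose neurons comes with the rest of the coat or alone.

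Each of 42 samples was hybridized to its own array, and samples fell into 6 groups. The nodose ganglion (NG) holds the cell bodies of vagal afferents from the viscera, and the dorsal root ganglion (DRG) holds those of spinal afferents. About 150 neurons per sample, called visceral sensory neurons in the series title, were cut from tissue sections by laser capture and read on Mouse430_2 (NG n = 11, DRG n = 9) or MG-U74Av2 (NG n = 5, DRG n = 5). Whole ganglia were lysed and read on MG-U74Av2 (NG n = 7, DRG n = 5). The labels name no transgene, mutant allele or drug for any group. The sources used here do not give how visceral neurons were recognised. Laser capture appears in the description of every sample, whole ganglia included, and the whole ganglia were taken as such from their extraction protocol. The RNA labelled was amplified for the captured MG-U74Av2 samples and total for all others, per the labels' protocols. The labels do not tell whether each sample is a separate animal, and the p-values therefore cover only the spread among these samples, which may be technical. Captured samples of 5 NG and 5 DRG title numbers occur on both array types, and whether an equal number marks the same neurons or RNA is not stated.

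Caveolae are flask-shaped pits of the plasma membrane. Caveolins, which are hairpin membrane proteins, and cavins, which are cytosolic coiled-coil proteins, assemble into a coat around the pit, and caveolae buffer membrane tension and gather signalling proteins. In mice, loss of Cav1 or of Cavin1 removes caveolae from non-muscle tissue, whereas loss of Cavin2 removes them from the endothelium of some organs. Caveolae are abundant in endothelial cells, adipocytes, fibroblasts and smooth muscle and are rarely seen in neurons.

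The start regions of Cavin2 and of the essential coat genes Cav1 and Cavin1 are shown because the 3 genes did not share a ganglion pattern in these data. They are RefSeq sequences of mouse build GRCm38.p6, running from 250 bases before the annotated start to 50 bases after it, written 5′ to 3′ on the gene's own strand. Capitals mark the letters CCAAT or ATTGG (the CCAAT motif), GGGCGG or CCGCCC (the GC box) and TATAAA or TTTATA (the TATA motif), each searched on both strands, and no marked motifs overlap.
Cavin2, chr1:51288876-51289175, plus strand: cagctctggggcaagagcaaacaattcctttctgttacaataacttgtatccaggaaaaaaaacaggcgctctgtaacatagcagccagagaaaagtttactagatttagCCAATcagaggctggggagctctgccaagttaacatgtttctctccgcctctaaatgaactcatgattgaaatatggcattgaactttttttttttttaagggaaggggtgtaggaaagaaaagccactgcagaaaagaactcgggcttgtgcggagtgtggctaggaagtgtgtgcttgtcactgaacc
Cav1, chr6:17306085-17306384, plus strand: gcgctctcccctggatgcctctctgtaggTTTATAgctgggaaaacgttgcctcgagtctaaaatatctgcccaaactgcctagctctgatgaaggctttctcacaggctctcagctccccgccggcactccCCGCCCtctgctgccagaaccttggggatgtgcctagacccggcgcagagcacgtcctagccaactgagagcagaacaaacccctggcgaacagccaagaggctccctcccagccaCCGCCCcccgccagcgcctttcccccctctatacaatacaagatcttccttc
Cavin1, chr11:100970568-100970867, minus strand: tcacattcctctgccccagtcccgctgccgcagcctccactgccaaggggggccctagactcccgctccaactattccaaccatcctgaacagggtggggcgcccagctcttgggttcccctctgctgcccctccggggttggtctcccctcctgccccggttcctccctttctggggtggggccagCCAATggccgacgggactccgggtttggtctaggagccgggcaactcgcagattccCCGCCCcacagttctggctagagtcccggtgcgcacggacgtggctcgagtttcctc
The Cavin2 region was 43.3% G and C, lower than in most of the 32851 mouse start regions of the same length (17.3rd percentile, median 52.7%), and held 1 CCAAT motif and no GC box or TATA motif. The Cav1 region shown was 59.3% G and C and held 2 GC boxes and 1 TATA motif far from its start, whereas another Cav1 start region, chr6:17307390-17307689, was 62.3% G and C and held none of these motifs. The Cavin1 region shown was 66.7% G and C and held 1 CCAAT motif and 1 GC box, as did an overlapping Cavin1 region, chr11:100970566-100970865. A start region of Cav2, chr6:17280935-17281234, was 64.3% G and C with 1 CCAAT motif and 2 overlapping GC boxes. Of all the start regions, 37.4% held a CCAAT motif, 35.7% a GC box and 13.6% a TATA motif. These matches are descriptions of letters and not binding sites. Cav2 (chr6:17281185-17289130) and Cav1 (chr6:17306335-17341328) are neighbours on chromosome 6, while Cavin2 (chr1:51289126-51302960), Cavin1 (chr11:100956736-100970617) and Cavin3 (chr7:105480616-105482197) lie on 3 other chromosomes.

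Deposited signals were brought to the same 2% trimmed mean on every array of a type, and levels below are those scaled signals. A signal has no absolute unit, and levels of different probe sets are not set against each other. The captured samples were checked against cell type markers. No neuron marker was dim on every captured NG array, where dim means under the 40th percentile of its own array, and Syt1 of the 8 was dim on every captured DRG array of MG-U74Av2. On MG-U74Av2, 4 of the 8 neuron markers tested were higher and 3 lower in captured than in whole NG (median log2 difference -0.04). In DRG 3 were higher and 3, Syt1 among them, lower (median -0.18). Syt1 passed the filter there only through whole DRG, where it is high, so nothing is drawn from its call. Of all probe sets tested, 26.2% were called as higher and 29.2% as lower in captured NG, and 22.9% and 24.3% in captured DRG. An enrichment of neurons is not shown by this list. All 5 fibroblast markers were lower in captured than in whole NG (median log2 difference -2.83), and 4 of 5 were lower in captured than in whole DRG (median -2.24), where 29.2% and 24.3% of all probe sets tested were called as lower. Glial markers remained: their summed signal ran from 2510 to 3520 in captured NG and from 5160 to 6960 in captured DRG on Mouse430_2. Against whole ganglia on MG-U74Av2, the 5 glial markers tested had a median log2 difference of -0.85 in NG and 0.03 in DRG. In pooled cells and whole ganglia alike, fewer cells of a type and less RNA per cell cannot be told apart.

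Cavin2 separated the ganglia in all 3 experiments and on every one of its probe sets. The product of Cavin2, also named SDPR, binds phosphatidylserine and protein kinase C and shapes the membrane of the pit. Its brightest Mouse430_2 probe set, 1416778_at, had a lowest, median and highest signal of 1177, 2980 and 3675 in captured NG, against 91.77, 122.2 and 158.7 in captured DRG. The lowest NG array lay above the highest DRG array. The means were 2694 ± 784.7 in NG (SD, n = 11) and 126.1 ± 20.31 in DRG (SD, n = 9), a log2 difference of 4.28, or 19.5-fold. Groups that do not overlap were seen for 3.84% of all probe sets tested there, and nothing is read from this for Cavin2, which the same arrays selected.

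The other Cavin2 probe sets of Mouse430_2 gave the same order with smaller differences. Probe set 1443832_s_at had a lowest, median and highest signal of 243.1, 652.9 and 1311 in captured NG, against 5.052, 44.35 and 77.24 in captured DRG, a log2 difference of 3.99 (15.9-fold). Probe set 1416779_at was dim in DRG, with 43.27, 104.4 and 208.8 in captured NG, against 6.651, 15.22 and 32.04 in captured DRG, a log2 difference of 2.21 (4.61-fold). Fold differences are on the scale of log2(signal + pseudocount), which understates differences of dim probe sets. The groups did not overlap on either probe set.

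On MG-U74Av2 Cavin2 is read by 160373_i_at, whose suffix marks a probe set with fewer probes than usual. Its signals in captured NG were 2935, 2470, 2121, 1632 and 558.9, against 85.52, 57.73, 46.12, 42.65 and 35.76 in captured DRG. The lowest captured NG array, number 003, still lay above the highest captured DRG array. The log2 difference was 4.77 (27.4-fold), and 16.3% of all probe sets tested had groups that do not overlap there. In whole ganglia the lowest, median and highest signals were 965.6, 1073 and 1350 in NG, and the 5 DRG signals were 187.8, 128.1, 119.8, 103.1 and 86.68. The log2 difference in whole ganglia was 3.09 (8.49-fold), again with no overlap, which held for 18.1% of all probe sets tested there. The spread among whole NG arrays was small, with an SD of 137 around a mean of 1124.

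**Figure D1:**
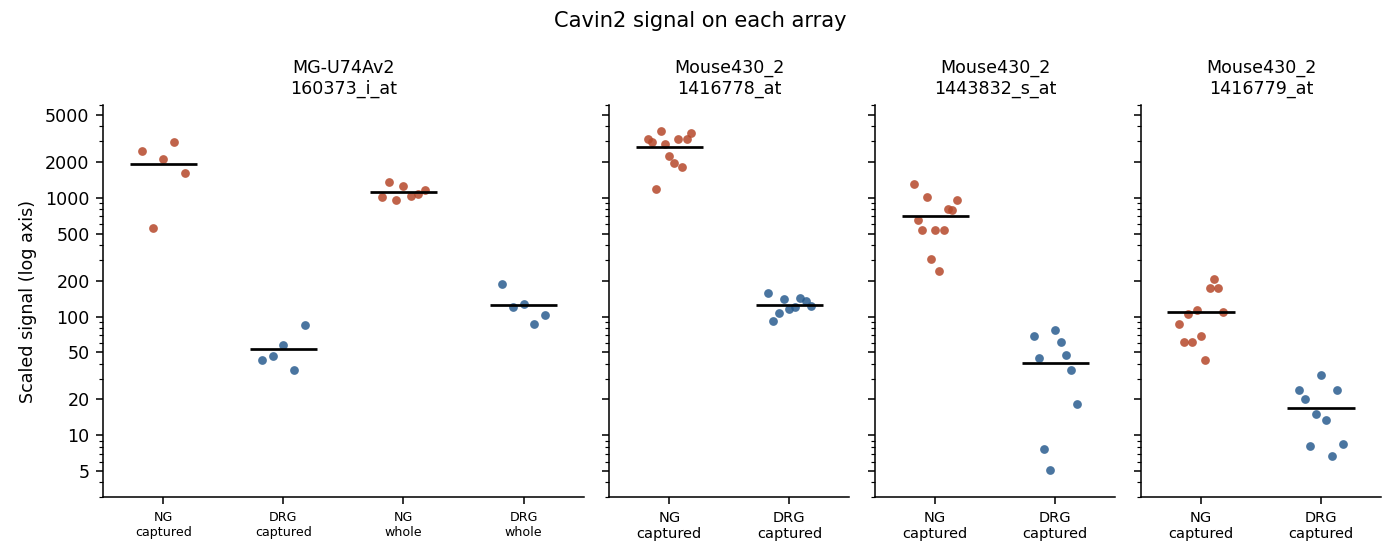
Scaled Cavin2 signal (log axis) on each array, with red points for NG, blue points for DRG and a black line at the group mean, for the MG-U74Av2 probe set and the 3 Mouse430_2 probe sets. On every probe set each NG array lies above each DRG array, for example 1177 to 3675 in captured NG against 91.77 to 158.7 in captured DRG on 1416778_at.

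The other coat genes did not show that pattern. In captured neurons on Mouse430_2, 4 of them could be tested and 2 passed the threshold, an adjusted p of 0.05 from limma with Benjamini-Hochberg adjustment over all 28107 probe sets tested, and they passed in opposite directions. At that threshold 22.2% of all probe sets tested were called, 9.72% as higher in NG and 12.5% as lower. Cavin3 rose and Cav1 fell in NG, and Cavin1 and Cav2 did not pass. Cavin3 passed the filter for dim probe sets through NG, where it is high, so no support is drawn from its call. On MG-U74Av2, 1 of 3 tested genes passed in captured neurons, as higher in NG, where 21.8% of all probe sets were called, 10.4% as higher and 11.3% as lower. In whole ganglia 2 of 3 passed, both as higher in NG, where 35.4% of all probe sets were called, 19.6% as higher and 15.8% as lower.

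Cav1 encodes caveolin-1, the integral membrane protein without which non-muscle caveolae do not form. On Mouse430_2 its probe set 1449145_a_at had a lowest, median and highest signal of 31.35, 67.36 and 241.7 in captured NG, against 139, 248.8 and 355.1 in captured DRG. Every NG array but number 003 lay below every DRG array. The means were 85.19 ± 60.91 in NG (SD, n = 11) and 229.2 ± 71.68 in DRG (SD, n = 9). Cav1 fell in captured NG by 1.52 on the log2 scale, SE 0.278 (limma adjusted p = 0.000164), so it was 2.87-fold lower there. Without NG array 003 the log2 difference was -1.69 (limma adjusted p = 8e-06). Among the samples whose title numbers also occur on MG-U74Av2 it was -1.03 and missed the threshold (limma adjusted p = 0.0703).

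On MG-U74Av2 Cav1 (160280_at) had signals of 229.9, 123, 110.3, 65.29 and 17.77 in captured NG, against 287.4, 254, 201, 194.2 and 98.63 in captured DRG. The groups overlapped. The log2 difference was -1.09, SE 0.445, and missed the threshold (limma adjusted p = 0.0956). Of the 10 fits that each left out 1 array, 9 missed the threshold too. The log2 differences of the 10 ran from -1.42 to -0.65, with limma adjusted p-values from 0.0233 to 0.195. The fit that passed left out NG array 003 (-1.42, limma adjusted p = 0.0233). Of 9 other alternatives 8 missed the threshold. The fit of all 4 MG-U74Av2 groups, which shares their spread, passed (-1.09, limma adjusted p = 0.022). In whole ganglia Cav1 had 457.9, 675.4 and 837.9 as lowest, median and highest signal in NG, and 903.4, 835.6, 834, 731.9 and 655.4 in DRG, a log2 difference of -0.32, SE 0.147 (limma adjusted p = 0.108). A further Cav1 probe set, 97849_at, was under the filter for dim probe sets and was not tested.

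Glial and some mural markers were also lower in captured NG. On Mouse430_2, 4 of 6 glial markers tested and 3 of 7 mural markers were called as lower in captured NG and none as higher, where 12.5% of all probe sets tested were called as lower. Of 4 fibroblast markers tested 1 was called, and Col1a1, a collagen chain, had a log2 difference of 0.13 (limma adjusted p = 0.77). Summed mural signal ran from 443 to 937 in captured NG and from 1410 to 2960 in captured DRG, with no overlap (medians 571 and 1660). Most of that gap lay in Rgs5, a pericyte gene, which averaged 161.9 in NG and 1268 in DRG. Summed fibroblast signal ran from 424 to 1430 in captured NG and from 966 to 3440 in captured DRG, where Dcn, which encodes the matrix proteoglycan decorin, averaged 452.4 in NG and 1626 in DRG. No marker of these lists was at 0 in any sample. Dim on every array of a Mouse430_2 group were Cdh19 in NG and Tagln in DRG. On MG-U74Av2, 1 of 3 mural markers tested was called as lower in captured NG and none as higher, where 11.3% of all probe sets tested were called as lower. The mural sums overlapped there, from 218 to 285 in captured NG and from 237 to 405 in captured DRG. The part of glial, mural and fibroblast cells in the Cav1 difference was not tested.

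Cavin3, which encodes a cavin that binds protein kinase C delta, gave the same direction in all 3 experiments. On Mouse430_2 its probe set 1423771_at had a lowest, median and highest signal of 22.4, 44.94 and 73.73 in captured NG, against 5.068, 27.87 and 39.46 in captured DRG, and the groups overlapped. It rose in captured NG by 0.75 on the log2 scale, SE 0.23 (limma adjusted p = 0.0175). It was above the 40th percentile of the array on all 11 NG arrays and on 4 of the 9 DRG arrays, so it passed the filter through NG, where it is high. No support is drawn from that call. The call was lost with unscaled signals (limma adjusted p = 0.0862) and in both subsets of title numbers, those absent from MG-U74Av2 (0.98, limma adjusted p = 0.0908) and those also on it (0.54, limma adjusted p = 0.24). On MG-U74Av2 it is read by 97496_f_at, whose suffix marks probes that can match a gene family. That probe set gave 1561, 1203, 1166, 911.8 and 623.4 in captured NG, against 799.2, 723.8, 689.6, 567.4 and 467.1 in captured DRG. The log2 difference was 0.70, SE 0.219 (limma adjusted p = 0.0335). This call was lost in 6 of the 10 fits that each left out 1 array (NG 003, 007 or 008, or DRG 003, 006 or 014), with adjusted p-values up to 0.0882, and also with unscaled signals (0.0813) and with no filter (0.056).

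In whole ganglia Cavin3 had 704.8, 918.4 and 1684 as lowest, median and highest signal in NG, against 832.1, 608.5, 606.8, 572 and 568.6 in DRG, and only DRG number 019 lay within the NG range. It rose in whole NG by 0.65, SE 0.165 (limma adjusted p = 0.00546). The 3 whole NG arrays with the highest Cavin3 signals, 046 (1684), 023 (1105) and 026 (1036), were also those with the highest adipocyte marker sums, at 1480, 1520 and 664, against 47.6 to 109 on the other 4. Without these 3 arrays the Cavin3 difference was 0.41 (limma adjusted p = 0.0341) and the Cav1 difference was -0.53, which then passed the threshold (limma adjusted p = 0.011). With signals left unscaled, neither Cavin3 (limma adjusted p = 0.405) nor Cavin1 (limma adjusted p = 0.31) passed in whole ganglia, and Cav1 did (-0.68, limma adjusted p = 0.02). Adipoq, which encodes the adipocyte hormone adiponectin, averaged 462 in whole NG (SD 579) and 41.16 in whole DRG (SD 20.99), with overlapping ranges. Its log2 difference of 1.84, SE 1.1, missed the threshold (limma adjusted p = 0.227).

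Cavin1, also named PTRF, is the cavin that recruits the other cavins to caveolae. It rose in whole NG, where 104100_at had 191.4, 276.7 and 335.6 as lowest, median and highest signal, against 194.3, 175.4, 150.3, 147.7 and 141.2 in whole DRG. The ranges met only at the lowest NG and the highest DRG array. The log2 difference was 0.70, SE 0.135 (limma adjusted p = 0.000557), and it was 0.61 without the 3 arrays of high adipocyte signal (limma adjusted p = 0.0117). In captured neurons on the same array type Cavin1 averaged 125.7 ± 34.74 in the 5 NG arrays and 100.7 ± 18.25 in the 5 DRG arrays (SD), with a log2 difference of 0.28, SE 0.194 (limma adjusted p = 0.341). On Mouse430_2 the brightest of its 3 probe sets, 1424130_a_at, had a lowest, median and highest signal of 16.53, 47.41 and 102.7 in captured NG, against 25.52, 47.01 and 64.07 in captured DRG. The difference was 0.08, SE 0.224 (limma adjusted p = 0.846), and the other probe sets gave -0.05 and 0.12. The medians of the groups were nearly equal on this probe set.

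Endothelial markers moved with Cavin1 and Cavin3 in whole ganglia. Of 10 endothelial markers tested, 6 were higher in whole NG and none was lower, where 19.6% of all probe sets tested were called as higher, and their summed signal ran from 1740 to 3330 in whole NG and from 1210 to 1730 in whole DRG. Cdh5, the endothelial cadherin, averaged 206.3 in whole NG and 126.2 in whole DRG. In captured neurons on MG-U74Av2, 1 of 7 tested was called as higher and 2 as lower in NG, against 10.4% and 11.3% of all probe sets tested. One of the 2, Cdh5, passed the filter only through DRG, where it is high, and Cdh5, Tek, Tie1, Cldn5, Ramp2 and Nos3 were dim on every captured NG array. The endothelial sums there ran from 637 to 1220 in captured NG and from 936 to 1300 in captured DRG. Their part in the Cavin1 and Cavin3 differences was not tested.

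Cav2 encodes caveolin-2, which depends on caveolin-1 to leave the Golgi. Its probe set 1425955_at on Mouse430_2 had a lowest, median and highest signal of 5.18, 26.68 and 47.81 in captured NG, against 12.62, 29.81 and 50.76 in captured DRG. The log2 difference was -0.30, SE 0.263 (limma adjusted p = 0.466). Its other probe set, 1417327_at, averaged 5.587 in captured NG and 12.66 in captured DRG and was under the filter. Probe set 1417327_at lay low on the arrays, with a median percentile of 15.3 in captured NG and 27.1 in captured DRG. Those of 1425955_at were 45.9 and 48.9, and it was above the 40th percentile on 8 of 11 NG and 5 of 9 DRG arrays. A signal at either level may be background.

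**Figure D2:**
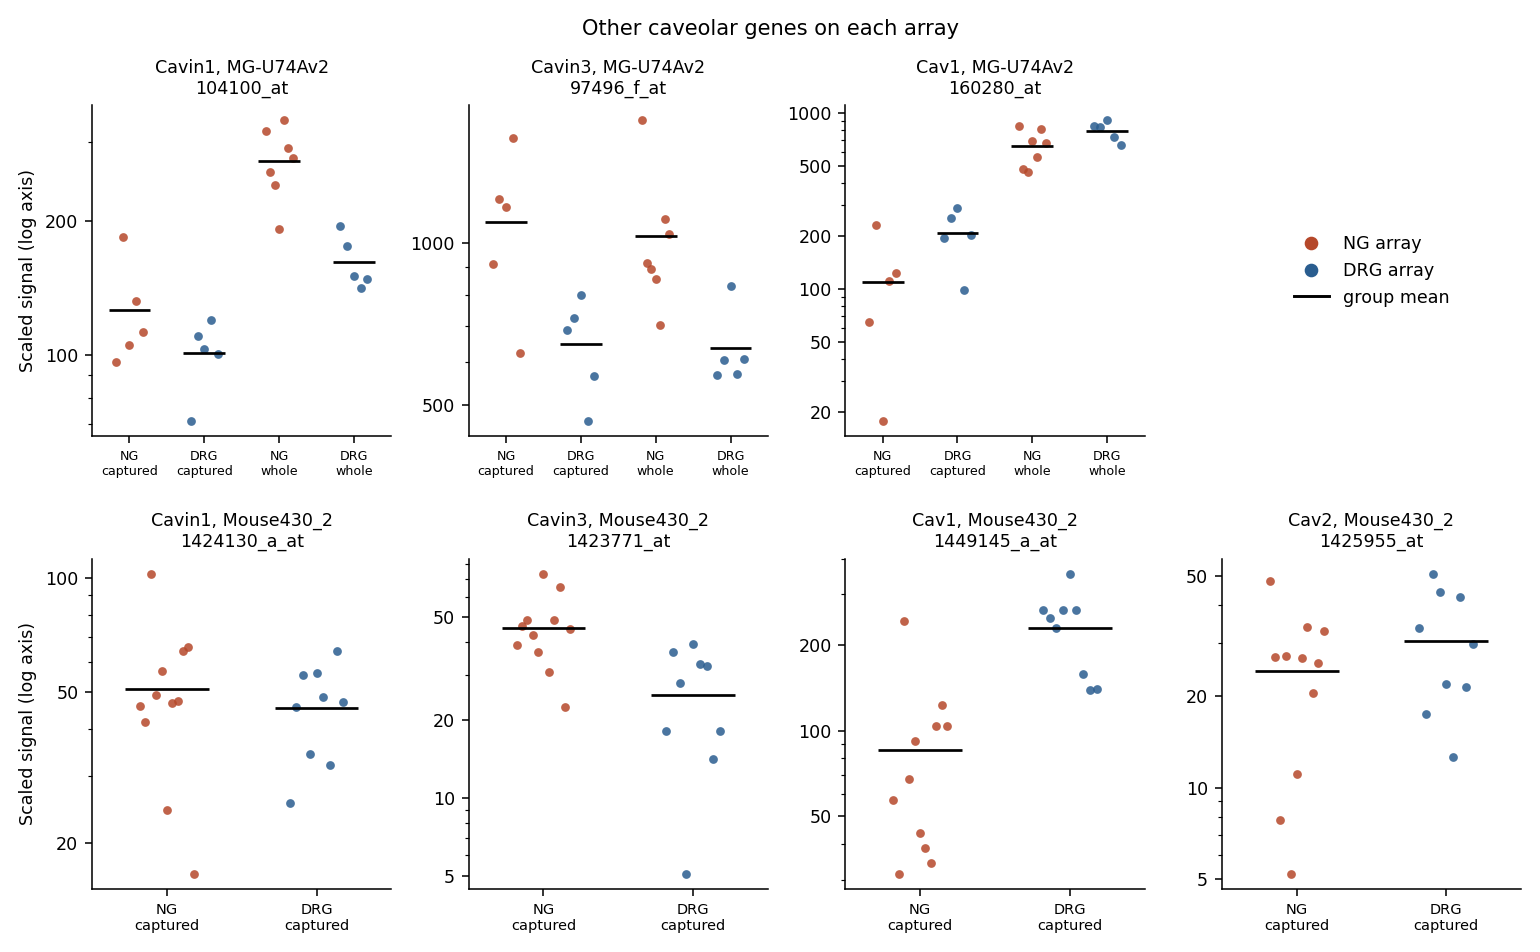
Scaled signal (log axis) of Cavin1, Cavin3, Cav1 and Cav2 on each array, with red points for NG, blue points for DRG and a black line at the group mean. Ranges of NG and DRG overlap in every panel, and Cav1 on Mouse430_2 has 1 NG array, 003 at 241.7, within the DRG range of 139 to 355.1.

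**Figure D3:**
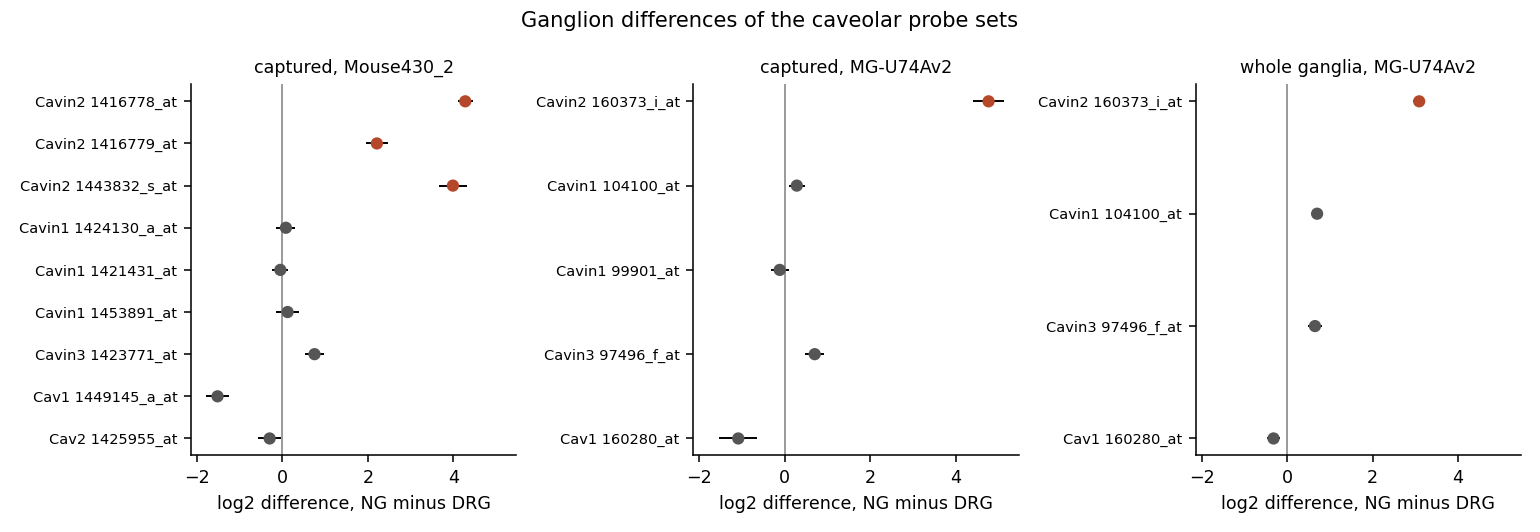
Log2 difference, NG minus DRG, of every caveolar probe set that passed the filter, with bars of 1 SE from limma, for captured neurons on Mouse430_2 and on MG-U74Av2 and for whole ganglia. The Cavin2 points, in red, lie between 2.21 and 4.77, and those of the other genes, in grey, lie between -1.52 and 0.75.

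The endothelial list was set beside Cavin2 as well, because Cavin2 is an endothelial gene in many tissues. In captured NG on Mouse430_2, 2 of 13 endothelial markers tested were higher and 1 was lower, against 9.72% and 12.5% of all probe sets tested, and the sums ran from 1120 to 1900 in captured NG and from 1070 to 1550 in captured DRG. The higher ones were Kdr, the receptor for vascular endothelial growth factor, and Flt1, a related receptor, with log2 differences of 2.44 (limma adjusted p = 4.89e-08) and 1.38 (limma adjusted p = 0.00251). Flt1 was above the 40th percentile on 10 of 11 captured NG arrays and 5 of 9 captured DRG arrays. It thus passed the filter through NG, where it is high. Esam, an endothelial adhesion molecule, was lower by a log2 difference of -0.82 (limma adjusted p = 0.00556). Pecam1 and Tie1 were dim on every captured NG array. Cdh5 averaged 26.74 in captured NG and 43 in captured DRG, a log2 difference of -0.53 (limma adjusted p = 0.201), and on MG-U74Av2 it was dim on every captured NG array, with a mean of 11, against a mean of 67.14 in captured DRG. On MG-U74Av2, 1 of 7 endothelial markers tested, Kdr, was called as higher in captured NG (log2 difference 1.63) and 2 as lower. The shares over all probe sets tested were 10.4% and 11.3%. Cavin2 was 19.5-fold higher in captured NG on Mouse430_2 and 27.4-fold on MG-U74Av2. Platelets, another known site of Cavin2, gave 2 tested markers on Mouse430_2, of which 1 was higher, with sums of 112 to 289 in captured NG and 139 to 258 in captured DRG, and Ppbp and Gp9 dim on every array. The part of these cells in the Cavin2 signal was not tested.

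Captured neurons were then set against whole ganglia of the same kind, in a fit of all 4 groups on MG-U74Av2. The arrays in it, NG and DRG, are also those of the contrasts that chose Cavin2, so Cavin2 is described with no test and left out of the counts. Capture and amplification of the RNA cannot be told apart in this comparison. Cav1 and Cavin1 fell on capture in both ganglia, and Cavin3 passed in neither. In NG 2 of the 3 other genes passed, where 55.3% of all probe sets did, 26.2% as higher and 29.2% as lower in captured neurons. In DRG 2 of 3 passed, where 47.2% of all probe sets did, 22.9% as higher and 24.3% as lower.

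Cavin2 averaged 1943 ± 909 in captured NG (SD, n = 5) and 1124 ± 137 in whole NG (SD, n = 7), and 4 of the 5 captured arrays lay above every whole array. The log2 difference was 0.60. Captured NG number 003, at 558.9, was the lone array below the whole range. In DRG Cavin2 averaged 53.56 ± 19.56 in captured neurons and 125.1 ± 38.49 in whole ganglia (SD, n = 5 each), and no captured array lay above the lowest whole array. The log2 difference in DRG, captured minus whole, was -1.08. The ganglion difference of Cavin2 was 1.68 larger on the log2 scale in captured neurons than in whole ganglia, given as a description because the same arrays chose the gene.

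Cav1 averaged 109.3 ± 79.12 in captured NG (SD, n = 5) and 645.2 ± 150.6 in whole NG (SD, n = 7), with no overlap. It fell in captured NG by 2.72 on the log2 scale, SE 0.325 (limma adjusted p = 1.36e-07), which is 6.58-fold. In DRG it averaged 207 ± 71.81 in captured neurons and 792.1 ± 97.9 in whole ganglia (SD, n = 5 each) and fell in captured neurons by 1.95, SE 0.351 (limma adjusted p = 6.53e-05). Cavin1 fell in captured NG by 1.07, SE 0.157 (limma adjusted p = 2.51e-06), and in captured DRG by 0.64, SE 0.169 (limma adjusted p = 0.00306). Its dim probe set 99901_at gave 0.36 in NG and 0.39 in DRG and did not pass. Cavin3 gave log2 differences of 0.07 in NG (limma adjusted p = 0.77) and 0.02 in DRG (limma adjusted p = 0.955).

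None of Cav1, Cavin1 and Cavin3 had a ganglion difference that was shown to depend on capture. Cavin2 was not tested for this, and Cav2 has no probe set on MG-U74Av2. The interaction, the captured ganglion difference minus the whole one, was -0.77 for Cav1 (limma adjusted p = 0.287), -0.43 for Cavin1 (limma adjusted p = 0.207) and 0.06 for Cavin3 (limma adjusted p = 0.919), 0 past the threshold and 0 with an unadjusted limma p under 0.05, where 18.2% of all probe sets were, 7.71% as positive and 10.5% as negative.

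Fibroblast markers fell beside Cav1 and Cavin1 in both ganglia: all 5 tested were lower in captured NG, against 29.2% of all probe sets, and 4 of 5 in captured DRG, against 24.3%. In NG, 7 of 10 endothelial markers tested were called as lower in captured neurons and 1, Kdr, as higher, against 29.2% and 26.2% of all probe sets. Of those 7, Cdh5, Cldn5, Ramp2 and Tie1 were dim on every captured NG array and passed the filter only through whole NG, where they are high. Eng, a co-receptor for transforming growth factor beta, was not among these 4 and fell by 2.03. In DRG 4 of 10 endothelial markers were called as lower in captured neurons and none as higher, where 24.3% of all probe sets were called as lower. Eng, Kdr, Cldn5, Flt1 and Pecam1 had log2 differences between -0.12 and 0.11 in DRG. The part of these cell types in the Cav1 and Cavin1 differences was not tested.

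**Figure D4:**
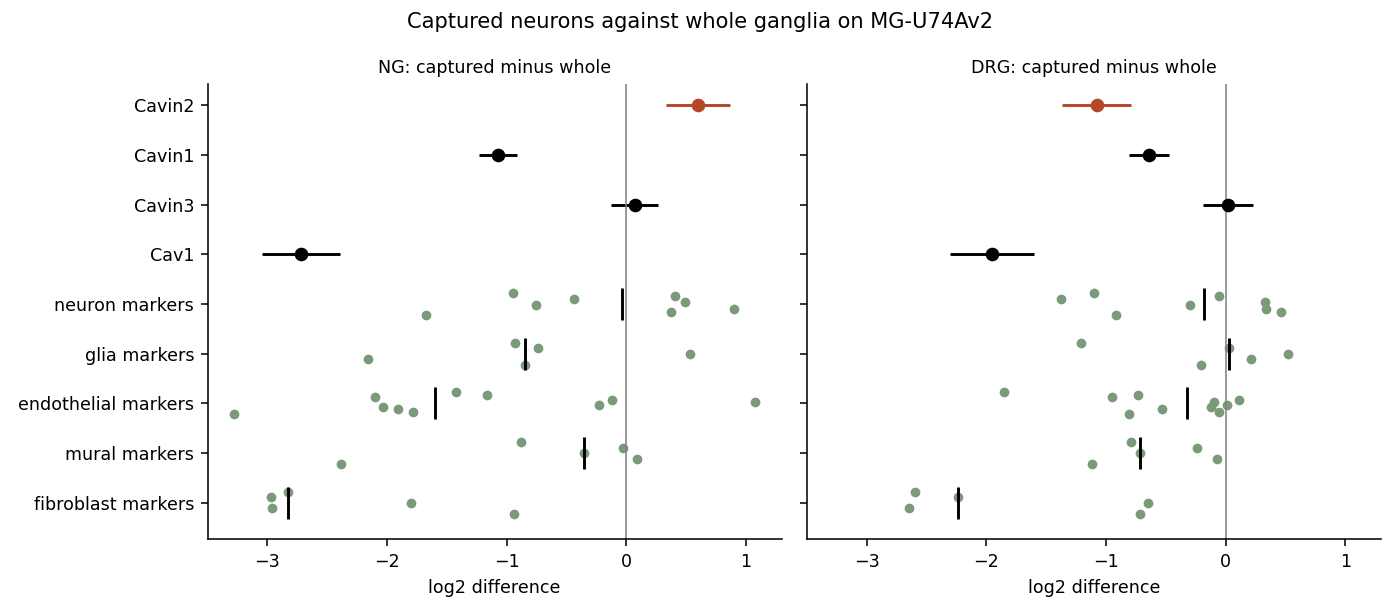
Log2 difference of captured neurons minus whole ganglia on MG-U74Av2, for NG in the left panel and DRG in the right panel: 4 caveolar genes with bars of 1 SE from limma, and the tested markers of 5 cell types as green points with a black line at the list's median. Cav1 and Cavin1 lie left of 0 in both panels with most fibroblast and endothelial markers, while Cavin2 lies at 0.60 in NG and at -1.08 in DRG.

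A further list of genes that act at caveolae or beside them was followed: the muscle coat genes Cav3 and Cavin4, the neck and scission proteins of the Ehd, Pacsin and dynamin families, Ror1, Flna, the flotillins Flot1 and Flot2, and the kinases Prkca and Prkcd. In captured neurons on Mouse430_2, 2 of 14 tested genes rose in NG and 0 fell, against 9.72% and 12.5% of all probe sets tested (1, Prkca, was negative at an unadjusted limma p of 0.0261), with a median log2 difference of 0.20, against -0.051 over all probe sets tested. Prkcd, the kinase that Cavin3 binds, rose with a mean of 863.5 in captured NG and 420.9 in captured DRG, a log2 difference of 1.07, SE 0.177 (limma adjusted p = 4.79e-05). Pacsin3, a membrane-bending protein found at caveolae of muscle, rose with a mean of 355.9 in captured NG and 181 in captured DRG, a log2 difference of 0.90, SE 0.243 (limma adjusted p = 0.00775). Ehd2, the ATPase of the caveolar neck, averaged 115.6 in captured NG and 90.4 in captured DRG, a log2 difference of 0.32 (limma adjusted p = 0.141).

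On MG-U74Av2, 2 of 9 were called as higher in captured NG and 1 as lower, against 10.4% and 11.3% of all probe sets tested, with a median of 0.22, against 0.047 over all probe sets tested. One of the 2 was Cav3, which averaged 53.81 in captured NG and 23.86 in captured DRG. It was dim on every captured DRG array and passed the filter only through NG, where it is high, so that call supports nothing. Prkcd rose there by 0.78 (limma adjusted p = 0.0015), and Prkca, a conventional protein kinase C, fell by 0.96 (limma adjusted p = 0.000478). Cav3 was under the filter on Mouse430_2, at 3.742 in captured NG and 3.234 in captured DRG. In whole ganglia 1 of 8 rose in NG and 4 fell, against 19.6% and 15.8% of all probe sets tested, with a median of -0.30, against 0.051 over all probe sets tested. Flot1 rose by 0.53, while Prkca fell by 1.04, Pacsin1 by 0.91, Prkcd by 0.66 and Ehd1 by 0.44. Prkcd thus had opposite signs in captured and whole ganglia, and its interaction was 1.44, SE 0.163 (limma adjusted p = 8.37e-07).

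The same list was read for capture. In NG 3 of 9 were called as higher in captured neurons and 1 as lower (median 0.14, against 0.017 over all probe sets), where 26.2% and 29.2% of all probe sets were. In DRG 1 of 9 rose and 4 fell (median -0.58, against 0.032), where 22.9% and 24.3% of all probe sets did. Prkcd averaged 2474 in captured NG and 1934 in whole NG, a log2 difference of 0.34 (limma adjusted p = 0.0105). In DRG it averaged 1443 in captured neurons and 3059 in whole ganglia, a log2 difference of -1.09 (limma adjusted p = 4.44e-08). Flot2 rose by 0.31 in captured NG, and Prkca fell by 0.64. Cav3, the other gene called as higher there, was above the 40th percentile on all 5 captured NG arrays and on 1 of the 7 whole NG arrays, so it too passed the filter through its high group. In captured DRG Flot1 rose by 0.43, while Pacsin1 fell by 1.03, Ehd1 by 0.99 and Prkca by 0.71. For the difference between ganglia, 4 of 9 had an interaction past the threshold, where 18.2% of all probe sets did, positive for Prkcd, Pacsin1 (1.17) and Cav3 (1.45, at the dim signals above) and negative for Flot1 (-0.53).

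Within a group, Cavin2 did not track the other coat genes beyond what permutation gave. Of 11 relations computed in the 3 groups of at least 6 arrays, none passed Benjamini-Hochberg adjustment, the lowest adjusted permutation p being 0.294 for Pearson's r and 0.133 for Spearman's rho. Across the 11 captured NG arrays on Mouse430_2, Cavin2 and Cav1 had r = -0.45 (permutation p = 0.188) and rho = -0.17 (permutation p = 0.615), and r was 0.44 without the 2 arrays farthest from the Cavin2 median, 003 among them. Cavin2 and Cavin1 had r = -0.54 (permutation p = 0.0715) and rho = -0.39 (permutation p = 0.237) there, and r was 0.00 without those 2 arrays, so the relation rested on them. Cavin2 and Cav2 had r = 0.55 (permutation p = 0.099) and rho = 0.75 (permutation p = 0.0121, adjusted 0.133), at Cav2 signals that may be background. In captured DRG (9 arrays) r was -0.60 for Cavin1, -0.55 for Cavin3, -0.21 for Cav1 and 0.37 for Cav2, with exact permutation p-values from 0.0775 to 0.602. In whole NG (7 arrays) r was -0.46 for Cavin1, -0.21 for Cavin3 and -0.10 for Cav1, with exact permutation p-values from 0.319 to 0.811. Most of the directions depended on the scaling of the arrays. With deposited values left unscaled, r was 0.01 for Cavin1 and 0.03 for Cav1 in captured NG. Cavin3, at -0.16 against -0.31 scaled, and Cav2, at 0.39, kept their sign there. In captured DRG r was 0.29 for Cavin1, 0.04 for Cavin3 and 0.26 for Cav1, and Cav2, at 0.30, kept its sign. In whole NG it was then 0.51, 0.39 and 0.37 for Cavin1, Cavin3 and Cav1, so no direction is read from these relations.

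Captured NG number 003 was picked after its values were seen. It lay at an end of the captured NG range for the brightest Cavin2, Cav1 and Cavin1 probe sets on both array types. The check for far arrays given below flagged none of its signals on MG-U74Av2 and did not cover captured NG on Mouse430_2. Array 003 had the lowest Cavin2 signal, 1177 on Mouse430_2 and 558.9 on MG-U74Av2, together with the highest Cav1 signal, 241.7 and 229.9. Its Cavin1 signal was also the highest, at 102.7 and 183.3. Its endothelial marker sum was the lowest on both, at 1120 and 637, and its fibroblast sum, at 1140 and 2540, was exceeded by 1 other array on each type. Its mural sum was the lowest on Mouse430_2, at 443, and the highest on MG-U74Av2, at 285. Whether both arrays were made from the same neurons is not stated, so they may not be independent. Captured NG 014, with the highest fibroblast sum on Mouse430_2 (1430), had the next highest Cav1 signal on both array types, 123 on each. Other arrays went the other way. On Mouse430_2 captured NG 008, with the lowest fibroblast sum (424), had a Cav1 signal of 103.8, and 010, with a sum of 989, had 57.1. A relation of Cav1 to the fibroblast sums was not tested.

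**Figure D5:**
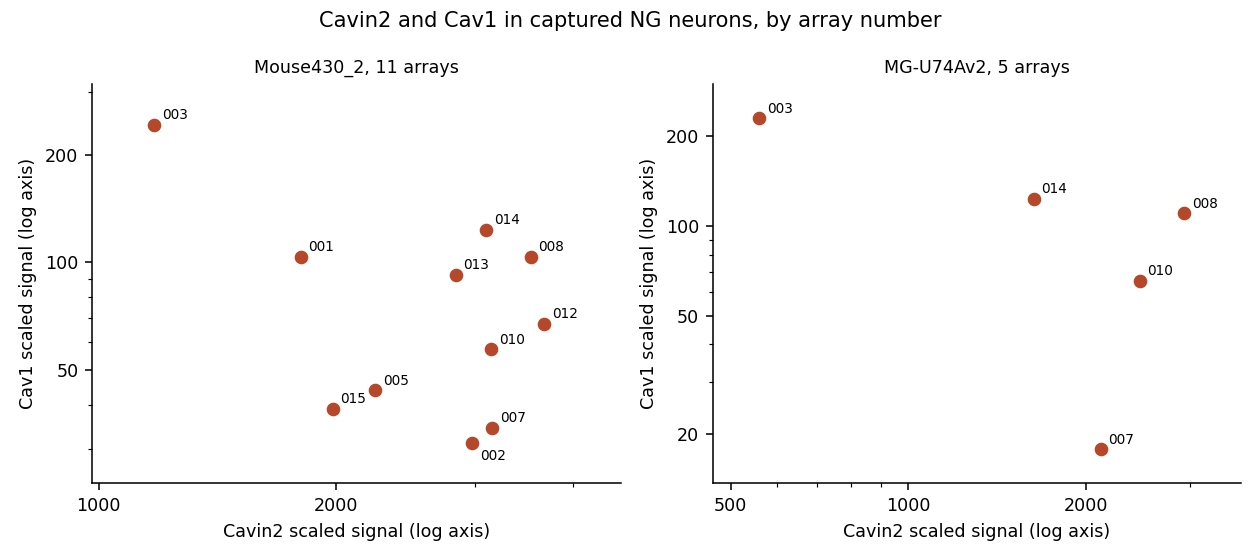
Scaled Cav1 signal against scaled Cavin2 signal (both log axes) in captured NG neurons, each point an array named by its title number, for Mouse430_2 and MG-U74Av2. Array 003 lies at the upper left in both panels, with Cavin2 at 1177 and 558.9 and Cav1 at 241.7 and 229.9.

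Genes with a pattern like that of Cavin2 were ranked by Pearson's r of log2 signal with its brightest probe set over all arrays of a type, which share the ganglion difference. On MG-U74Av2 (22 arrays, 6260 genes) the highest were Htr3a (0.955), a serotonin-gated channel subunit, Atp7a (0.949), a copper pump, Fhod3 (0.948), an actin-nucleating formin, Ntsr1 (0.943), a neurotensin receptor, and Gpr65 (0.941), a proton-sensing receptor. On Mouse430_2 (20 arrays, 13972 genes) they were Ntsr1 (0.985), Tes (0.985), a focal adhesion protein, Hoxb5 (0.984), a homeobox factor, Ntrk2 (0.977), the receptor for brain-derived neurotrophic factor, and Fhod3 (0.976). The top 50 of the array types had 16 genes in common: Fhod3, Ntsr1, Gpr65, Hoxb5, Tes, Abcb1a, Sqor, Ltk, Ddc, Alk, Slc9b2, Hoxb4, Pbx3, Blcap, Unc5c and Mgll. No coat gene was among them. Cavin3 ranked 219 on MG-U74Av2 (r = 0.679) and 1735 on Mouse430_2 (r = 0.559), and Cavin1 ranked 871 (r = 0.431) and 6842 (r = -0.011). Cav2 ranked 8580 on Mouse430_2 (r = -0.168). Cav1 ranked 4581 on MG-U74Av2 (r = -0.193) and 13459 of 13972 on Mouse430_2 (r = -0.792), close to the opposite end.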

How the data were processed

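Expression was measured in 42 samples on 2 Affymetrix array types. Each probe set has a linear signal intensity per array as deposited; per the submitters' processing notes the authors used MAS5 (version not stated there), which condenses the probes of a set into 1 signal. Detection calls were not analysed here. The 2% trimmed means of the deposited intensities ran from 84.24 to 200.5 on Mouse430_2 and from 174.9 to 408.3 on MG-U74Av2, so arrays were scaled to the same trimmed mean within an array type.

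The log2 of signal plus a pseudocount was analysed, with the 20th percentile of an experiment as pseudocount: 7.48 for captured neurons on Mouse430_2, 11 for captured neurons on MG-U74Av2, 11.7 for whole ganglia and 11.4 for the fit of all MG-U74Av2 groups. Probe sets entered a test when their signal exceeded the 40th percentile of the array in a number of arrays no smaller than the smaller group. This left 9 of 10 caveolar probe sets on Mouse430_2, 5 of 6 in captured neurons and in the 4-group fit on MG-U74Av2, and 4 of 6 in whole ganglia. A probe set that passed only through its high group had to differ, and this is stated where such a call is given for a named gene. Cavin2 was planned to be tested on capture, which is not used because these arrays chose it. Fits used limma 3.58.1 (lmFit, then eBayes with its trend and robust options) under R 4.3.3, two-sided, adjusted by Benjamini-Hochberg over all probe sets tested, and were tested on simulated data. Correlations used scipy 1.17.1 with exact permutation under 10 arrays and 100000 resamples otherwise. For each gene the probe set of highest mean log2 signal was counted, and all are described.

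All probe sets of the 5 genes are named, with each accessory gene past the threshold (at most 4 per direction) and the 5 genes most like Cavin2 per array type. Further genes are named from the marker lists, and Ehd2, Adipoq and the array numbers set apart were chosen after their values were seen. The members and lists were chosen with earlier results of these data known. Whether title numbers shared by NG and DRG arrays mark the same animal is not stated, and the main fits did not pair them. Deviations of same-numbered arrays correlated between -0.154 and 0.155, which does not settle it. No pair of arrays held identical values. Alternatives were other scalings, pseudocounts, no filter, array weights, the replicate block on arrays of shared numbers, each array left out, and subsets of title numbers. Leaving out 3 whole NG arrays of high adipocyte signal was chosen after seeing the data. The number of arrays limits the precision.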

Additional observations from a re-analysis of the deposited data

Results flagged for a closer look

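Of 34 combinations of a probe set and a group of 4 to 10 arrays, 3 held an array far from the others by Dixon's criterion, and chance alone gives about 1 in 20. Cavin3 (97496_f_at) in whole DRG number 019 was 832.1, above the other 4 at 568.6 to 608.5. Cav1 probe set 97849_at, under the filter for dim probe sets, was 9.287 in captured DRG number 006 on MG-U74Av2 and 11.06 in whole DRG number 037, in each case below the other arrays of its group.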

How the results depend on the processing

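Every call of Cav1 and Cavin1 on capture kept its direction and its side of the threshold under all the alternatives, and the interaction of the 3 other genes gave 0 calls under each, by limma. With deposited values left unscaled, the count of called coat genes other than Cavin2 was 1 in whole ganglia (Cav1), 0 in captured neurons on MG-U74Av2 and 1 on Mouse430_2 (Cav1). With no filter on dim probe sets it was 0 in captured neurons on MG-U74Av2 (Cavin3, adjusted p = 0.056), and in the 4-group fit it was 2 (Cavin3 and Cav1). On Mouse430_2 it was 1 (Cav1) with the replicate block, where Cavin3 gave 0.71 (limma adjusted p = 0.0867). It was 1 (Cav1) with only numbers absent from MG-U74Av2, and 0 with only numbers also on MG-U74Av2. Each of these fits held fewer samples. Leaving out each array in turn gave counts of 2 to 3 in whole ganglia, 0 to 1 in captured neurons on MG-U74Av2, 2 to 2 on Mouse430_2, 0 to 0 for the interaction and, for capture, 2 to 2 in NG and in DRG. The capture counts were planned with Cavin2 included, and those are not used because these arrays chose it. In the replicate block fits the count of all called probe sets was 1059, against 1652 in the main fit, on MG-U74Av2, and 4003, against 6250, on Mouse430_2. Those fits kept only arrays whose number occurs in both groups (4 numbers on MG-U74Av2, 7 on Mouse430_2). Blocking and the loss of arrays therefore cannot be told apart. Of same-numbered pairs, 1 of 4 and 2 of 7 correlated above 0.1, which does not settle whether the title numbers pair the samples. Unscaled values gave 1089 called probe sets on MG-U74Av2, 4157 on Mouse430_2 and 662, against 1512, for the interaction. Of the accessory genes on Mouse430_2, 4 were called after quantile normalization, and 1 unscaled, with the block and with shared numbers, against 2, and 2 unscaled against 4 for capture in NG. The share of calls higher in NG was 55.3% in whole ganglia, against 40% with equal medians and 11.9% unscaled, and 43.7% in captured neurons on Mouse430_2, against 63.5% with equal medians and 24.4% unscaled. Equal medians moved the median of all probe sets by over 0.1 there, to 0.085 against -0.051, and in whole ganglia to -0.052 against 0.051. The ganglion difference of the brightest Cavin2 probe set ran from 2.73 to 5.17 over all alternatives and experiments. The cause of each change was not tested.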

Other observations

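With group means subtracted, so that the ganglion difference is removed, the genes most like Cavin2 across the 20 Mouse430_2 arrays were Mgmt (r = 0.831), Mcf2 (r = 0.812), Atad2 (r = 0.769), Rfxap (r = 0.759) and Aaas (r = 0.746). These are correlations chosen as the highest of many, given as a description.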
